A study of Mus musculus with 6 samples.

Results

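The 10 genes described here encode the proteins that bring fatty acids into brown adipocytes: the lipoprotein lipase system (Lpl, Gpihbp1 and Angptl4), the membrane transporters (Cd36, Slc27a1, Slc27a2 and Slc27a4) and the binding proteins of the cytosol (Fabp3, Fabp4 and Fabp5). They were taken by symbol from a table of 19241 genes, and all 10 were found. The 6 libraries hold bulk RNA-seq of the entire interscapular brown fat of newborn mice. The 3 WT libraries came from mice labelled Fstl1-floxed, which the design text calls wildtype. The 3 KO libraries came from mice labelled Myf5-Fstl1 KO, in which Fstl1, the gene of a secreted glycoprotein, was lost in the Myf5 lineage, the lineage of much of this depot and of skeletal muscle. The labels name no Cre allele, no sex, no age beyond newborn and no pooling of animals, and they do not say that each library is a separate animal, so the p-values measure the spread between these libraries.

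The targeted gene, Fstl1, measured 55.5, 130.04 and 54.4 FPKM in the WT libraries and 7.93, 13.1 and 8.77 FPKM in the KO libraries (log2 fold change −2.79 ± 0.33 SE; limma, adjusted p 0.00979). FPKM are fragments per kilobase of a transcript at a common number of mapped fragments, so levels of different genes can be compared per length. Xist was at 44.8 to 85.5 FPKM in WT and at 0.05 to 0.92 FPKM in KO, and the Y-linked Eif2s3y at 83.7 to 99.3 FPKM in KO and at 0 to 0.08 FPKM in WT. Sex therefore coincided with genotype in these libraries, and the 2 cannot be told apart in any difference given here. The brown adipocyte markers were present in every library, with summed levels of 7831 to 12591 FPKM in WT and 6354 to 7986 FPKM in KO. KO replicate 1 stood apart in skeletal muscle markers, with a summed level of 391.4 FPKM against 1481 to 2187 FPKM in the other 5 libraries, and WT replicate 3 in erythroid markers, with 14404 FPKM against 3077 to 5074 FPKM. Of 12 brown adipocyte markers (led by Ucp1) and 12 general adipocyte markers (led by Gpd1), 8 and 8 were lower in KO and 2 and 2 passed, all lower. Of 12 fibroblast and preadipocyte markers (led by Col3a1) 10 were higher and 1 passed, and 0 passed among the endothelial (led by Cdh5), muscle (Acta1), macrophage (C1qb), erythroid (Hbb-bs) and epidermal (Sfn) markers, of which 7 of 10 epidermal ones averaged under 0.5 FPKM. Their part in the differences below was not tested. Depth was estimated from the low FPKM values, of which 68.2% to 73.4% per library lay within 0.2 of a whole read (40% by even spread), at 13900000 to 14900000 reads per library.

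Brown adipocytes draw much of their fuel from triglycerides carried in the blood. Lipoprotein lipase is secreted by adipocytes and muscle cells, is carried to the inner face of the capillary by GPIHBP1, and there splits triglycerides into fatty acids. ANGPTL4 inactivates the enzyme. The fatty acids enter the cell with the help of the scavenger receptor CD36 and of the SLC27A proteins, which also have acyl-CoA synthetase activity, and are carried in the cytosol by small fatty acid-binding proteins. Many genes of this route are known targets of the PPAR nuclear receptors.

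All 10 genes were measured above the filter on low values, which asks for a mean of 0.5 FPKM, in a tissue where Fabp4 was the most abundant transcript of the whole table and Lpl and Cd36 were within the first 77 by mean level. Among the less abundant genes, Fabp3, Fabp5 and Slc27a4 had lower means in KO, with 43.1%, 64.1% and 66.5% of the WT mean, and Slc27a2 had a higher one, with 335.9%. In limma 0 of the 10 genes passed an adjusted p of 0.05, where 2.21% of 13331 genes tested passed (1.01% lower and 1.21% higher in KO). At an unadjusted p under 0.05 there were 3 of the 10 (Fabp3, Fabp5 and Slc27a4), against 19.2% of all genes tested. The values of the groups did not overlap in 2 of the 10, Fabp3 (KO lower) and Lpl (KO higher), where 24.9% of all genes tested did not overlap (11.4% KO lower and 13.6% KO higher). The log2 fold change was below 0 in 7 genes and above 0 in 3, with a median of −0.045, against a median of 0.011 over all genes tested. All fold changes are on the log2(FPKM + 1) scale. In bulk tissue, fewer cells of a type and less RNA per cell cannot be told apart.

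**Figure D1:**
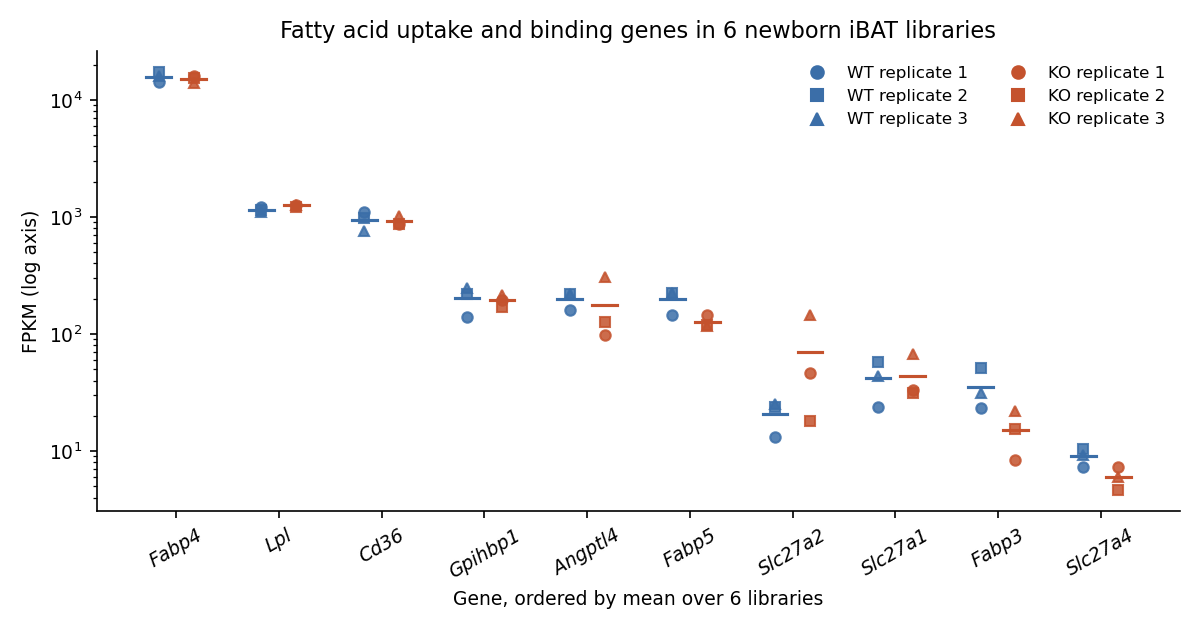
FPKM (log axis) of the 10 genes in each of the 6 libraries, ordered by mean level; points are libraries (symbol shape gives the replicate number), and horizontal bars are the means of 3 libraries. Fabp4 lies at 14000 to 17389 FPKM in both groups, while Slc27a2 spreads from 13.2 to 144.9 FPKM.

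The order of the levels was steep. Fabp4 lay above Lpl in 6 of 6 libraries, by 3.68 ± 0.19 on the log2 scale (SD over 6 libraries), Lpl above Cd36 in 6 of 6, by 0.37 ± 0.17, and Cd36 above Gpihbp1 in 6 of 6, by 2.25 ± 0.43. Gpihbp1, Angptl4 and Fabp5 followed: Gpihbp1 exceeded Angptl4 in 3 of 6 libraries, and Angptl4 exceeded Fabp5 in 3 of 6, so these neighbours did not differ beyond their spread. Slc27a2 had the higher mean than Slc27a1 over the 6 libraries but exceeded it in only 2 of 6, KO replicates 1 and 3. Fabp3 came next, and Slc27a4 was lowest in 6 of 6 libraries. The genes also differed in how much they varied within a group. The pooled within-group SD of Lpl on the log2 scale was 0.06, and 1.48% of the genes averaging 5 FPKM or more had a smaller one. For Slc27a2 the SD was 1.10, and 99.8% of those genes had a smaller one. Angptl4, Slc27a1 and Fabp3 had SDs of 0.60 to 0.63, with 97.9% to 98.1% of the genes below them.

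**Figure D2:**
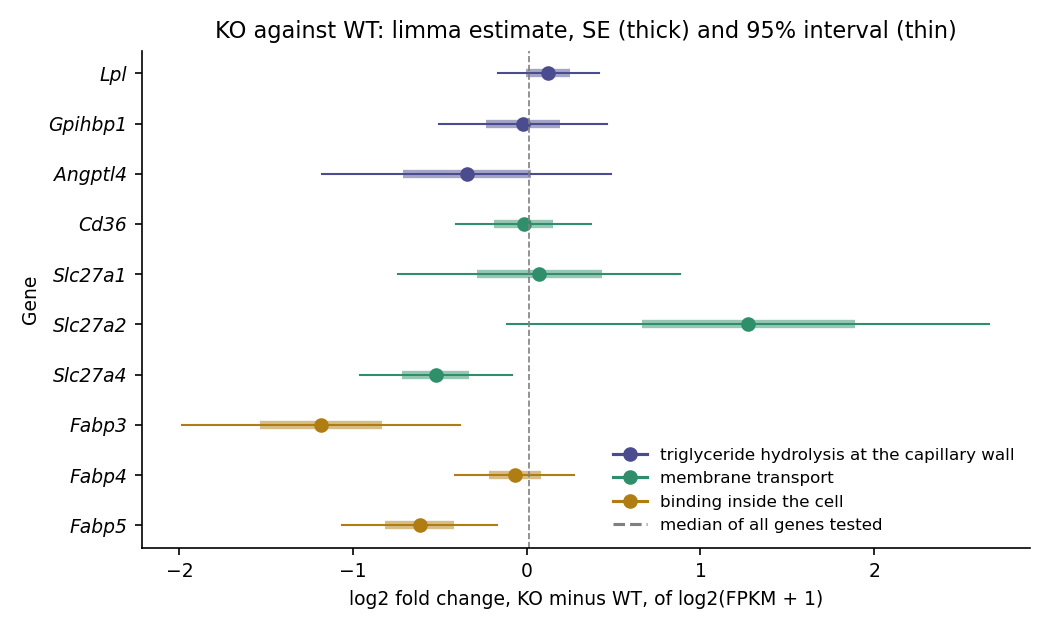
Log2 fold change (KO minus WT, of log2(FPKM + 1)) of each gene from the limma fit over all genes, with its SE as a thick bar and its 95% interval, not adjusted for the number of genes, as a thin line; colours give the role and the dashed line is the median of all genes tested, 0.011. The intervals of Fabp3, Fabp5 and Slc27a4 lie below 0 and those of the other 7 genes include it.

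The sequence just upstream of the start was in the RefSeq promoter table (GRCm38.p6) for 5 of the 10 genes. Those of Slc27a2 and Fabp3, the genes with the largest differences in each direction, and of Cd36, whose KO values lay between those of WT, are shown here so that the genes can be compared. Each is the 250 bases before a start listed in that table, 5′ to 3′ in the direction of the gene, with capitals on the hexamer AGGTCA, on either strand, the core letters of the element that PPAR binds. They lie at chr2:126552774-126553023 (plus strand), chr4:130308488-130308737 (plus strand) and chr5:17835897-17836146 (minus strand). The Cd36 window lies inside the annotated gene (chr5:17781690-17888959, minus strand), before an internal start and not before the outermost one; the windows of Slc27a2 and Fabp3 end at the base before the annotated gene.
Slc27a2: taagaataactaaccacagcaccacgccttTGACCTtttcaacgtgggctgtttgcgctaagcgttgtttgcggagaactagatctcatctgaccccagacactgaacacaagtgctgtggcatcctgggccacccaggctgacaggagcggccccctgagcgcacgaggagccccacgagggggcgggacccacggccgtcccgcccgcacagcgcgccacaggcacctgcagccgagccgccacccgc
Fabp3: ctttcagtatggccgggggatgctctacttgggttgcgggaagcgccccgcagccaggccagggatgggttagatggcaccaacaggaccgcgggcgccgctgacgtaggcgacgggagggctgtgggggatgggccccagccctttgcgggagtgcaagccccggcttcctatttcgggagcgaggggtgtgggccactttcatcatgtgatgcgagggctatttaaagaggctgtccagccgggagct
Cd36: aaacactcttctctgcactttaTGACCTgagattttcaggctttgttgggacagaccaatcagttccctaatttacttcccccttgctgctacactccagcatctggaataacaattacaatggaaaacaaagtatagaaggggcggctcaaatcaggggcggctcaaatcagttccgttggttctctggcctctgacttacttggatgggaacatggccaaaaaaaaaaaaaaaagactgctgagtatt
Slc27a2 held 1 hexamer, whose first base is 220 bases before the start, and Cd36 1 at 228 bases, both in the orientation TGACCT. Fabp3, Slc27a4 and the windows of Slc27a1 held 0. Of all 32851 windows of this length, 14.0% held the hexamer. The direct repeat AGGTCANAGGTCA, which contains the hexamer, was in 0 of the 7 windows of these genes and in 0.0335% of all windows. The windows also differed in composition: Slc27a2 and Fabp3 had 64.0% and 64.8% G and C with 19 and 17 CpG pairs, and Cd36 had 43.2% with 3, where the median over all windows was 52.4% with 6. Such matches describe letters in these windows only.

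In the lipase system, Lpl, which encodes the lipase itself, measured 1220, 1137 and 1093 FPKM in the WT libraries and 1253, 1225 and 1274 FPKM in the KO libraries, given here and below in the order of replicates 1, 2 and 3. Each KO library lay above each WT library, with WT replicate 1 and KO replicate 2 closest. The means were 1150 ± 64.5 and 1251 ± 24.9 FPKM (n = 3 each, ± SD), so that KO lay 0.12 ± 0.13 higher (log2 fold change ± SE; limma, adjusted p 0.646). The exact two-sided permutation test gave 0.1, the smallest p that 3 libraries against 3 can give. The 95% interval of the difference ran from 0.89-fold to 1.33-fold.

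Gpihbp1, whose product carries the lipase to the capillary lumen, measured 140.2, 217.9 and 245.7 FPKM in the WT libraries and 194.1, 171.5 and 215.6 FPKM in the KO libraries. WT replicate 1 was the lowest and WT replicate 3 the highest of all 6, so the KO values lay inside the WT range. The difference, KO minus WT, was −0.02 ± 0.21 (log2 fold change ± SE; limma, adjusted p 0.972), and its 95% interval ran from 0.705-fold to 1.38-fold. Gpihbp1 is a gene of capillary endothelium, and its summed marker list had 637.0 to 857.4 FPKM in WT and 659.3 to 750.0 FPKM in KO, with 0 of 12 endothelial markers past the threshold and a median log2 fold change of −0.048. Relative to that sum Gpihbp1 was at 22.0%, 27.3% and 28.7% in WT and at 27.3%, 22.9% and 32.7% in KO. These shares overlapped (log2 difference 0.08, exact permutation test p 0.8).

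Angptl4, the gene of the lipase inhibitor, measured 159.4, 218.8 and 221.3 FPKM in the WT libraries and 97.7, 125.7 and 304.8 FPKM in the KO libraries. KO replicates 1 and 2 were below every WT library and KO replicate 3 above every one. In the fit the change was −0.34 ± 0.37 on the log2 scale (± SE; limma, adjusted p 0.653), and its 95% interval ran from 0.442-fold to 1.40-fold. Leaving out KO replicate 3 gave −0.83 (log2 fold change; limma, adjusted p 0.124), and without KO replicate 1 it was −0.01 (adjusted p 0.988). The ratio of inhibitor to enzyme transcript within a library, which does not depend on library scaling, showed the same split: Angptl4 was at 13.1%, 19.3% and 20.3% of the Lpl level in WT and at 7.80%, 10.3% and 23.9% in KO (exact permutation test p 0.4).

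For these genes and Cd36 the most similar patterns over the 6 libraries were looked for among 8373 other genes averaging 5 FPKM or more, by Pearson correlation of log2(FPKM + 1). They were Cd300lg (0.995) and Vps72 (0.991) for Gpihbp1, Mbtd1 (0.994) and Shprh (0.993) for Lpl, 9030624J02Rik (0.983) and Timm10 (0.975) for Angptl4, and Ckap5 (0.980) and Polr3b (0.978) for Cd36. With 6 points, which share library and depth between genes, and 8373 candidates, these are descriptions of the libraries only. Cd300lg went from 60.5 FPKM in WT replicate 1 to 84.1 FPKM in WT replicate 3 and lay at 68.0 to 80.3 FPKM in KO; in both genes WT replicate 1 was the lowest library and WT replicate 3 the highest.

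Among the transporters, Cd36, the scavenger receptor that binds long-chain fatty acids, measured 1096, 979.8 and 755.5 FPKM in the WT libraries and 872.3, 875.7 and 1022 FPKM in the KO libraries. WT replicate 1 was the highest library and WT replicate 3 the lowest, with the KO libraries between them. KO minus WT came to −0.02 ± 0.17 (log2 fold change ± SE; limma, adjusted p 0.97), and its 95% interval ran from 0.755-fold to 1.29-fold. Slc27a1, which encodes fatty acid transport protein 1, the form common in fat and muscle, measured 24.0, 57.2 and 43.8 FPKM in the WT libraries and 33.4, 31.0 and 67.6 FPKM in the KO libraries. KO replicate 3 was the highest and WT replicate 1 the lowest. KO differed from WT by 0.07 ± 0.36 (log2 fold change ± SE; limma, adjusted p 0.939), and it was −0.28 without KO replicate 3.

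Slc27a2, which encodes a very long-chain acyl-CoA synthetase and transporter known mainly from liver and kidney, measured 13.2, 23.7 and 25.4 FPKM in the WT libraries and 46.3, 18.0 and 144.9 FPKM in the KO libraries. KO replicates 1 and 3 were above every WT library, and KO replicate 2 lay within the WT range. The means were 20.8 ± 6.60 and 69.7 ± 66.6 FPKM (n = 3 each, ± SD), and the SD of KO nearly equalled its mean. The log2 fold change of 1.27 ± 0.61 (SE) did not pass (limma, adjusted p 0.299), the exact permutation test gave 0.3 and the 95% interval ran from 0.924-fold to 6.34-fold. Without KO replicate 3 it was 0.51 (limma, adjusted p 0.584). Slc27a4, which encodes fatty acid transport protein 4, measured 7.34, 10.45 and 9.20 FPKM in the WT libraries and 7.37, 4.64 and 5.95 FPKM in the KO libraries. KO replicate 1 and WT replicate 1 were nearly equal, and the other KO libraries were below every WT library. The difference, KO minus WT, was −0.52 ± 0.19 (log2 fold change ± SE; limma, adjusted p 0.19).

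As shares of the SLC27A transcripts, Slc27a2 and Slc27a4 did not overlap between the groups, whereas their single levels did. Slc27a2 made up 29.7%, 26.0% and 32.4% of the summed FPKM of Slc27a1, Slc27a2 and Slc27a4 in WT, and 53.2%, 33.5% and 66.3% in KO. Every KO library was above every WT library, although KO replicate 2, at 33.5%, was close to WT replicate 3. The share of Slc27a4 was 16.5%, 11.4% and 11.7% in WT and 8.46%, 8.65% and 2.72% in KO, with every KO library below every WT library. The share of Slc27a1 overlapped, at 53.9% to 62.6% in WT and 31.0% to 57.8% in KO. Shares of 1 sum are not independent of each other, and each depends on the other genes of the sum. Slc27a4 itself was at 7.34 FPKM in WT replicate 1 and 7.37 FPKM in KO replicate 1. In KO replicate 3, where its share was 2.72%, Slc27a2 was at 144.9 FPKM. How often shares of other genes do not overlap was not computed. For Slc27a2 and Slc27a4 the exact permutation test of the log2 share gave 0.1, the smallest p possible, and 0.2 after Benjamini-Hochberg adjustment over the 10 ratios compared; without KO replicate 3 the log2 difference was 0.53 for Slc27a2 and −0.61 for Slc27a4.

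**Figure D3:**
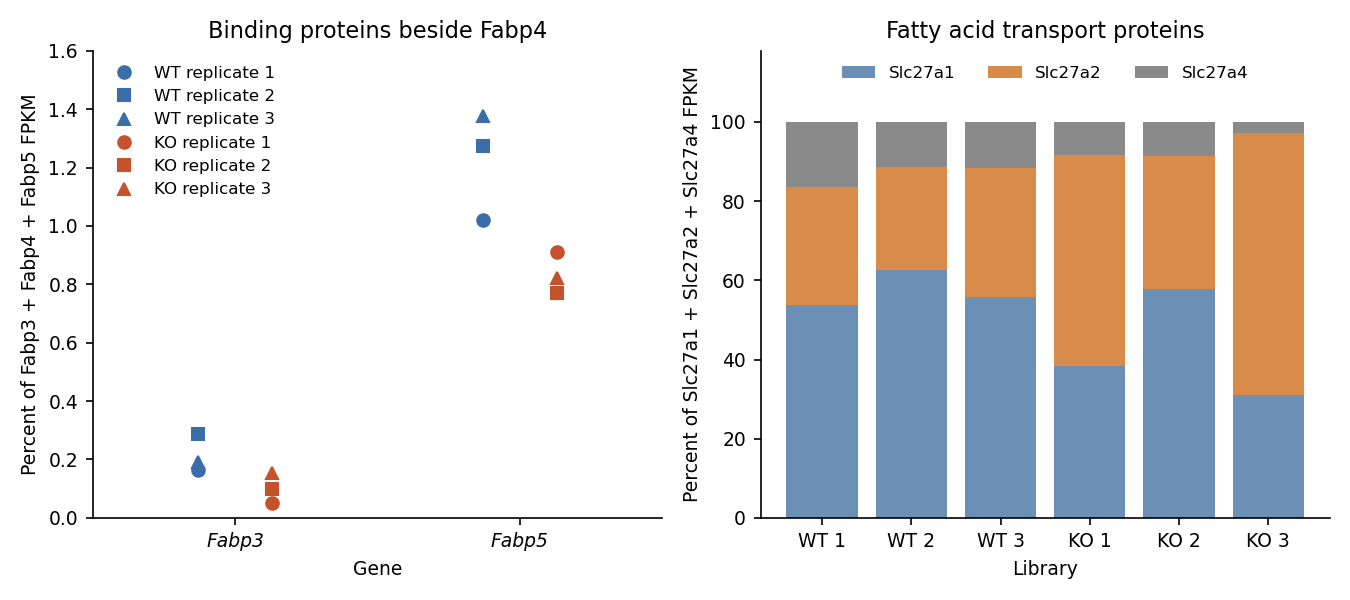
Left, Fabp3 and Fabp5 as a percent of the summed FPKM of Fabp3, Fabp4 and Fabp5 in each library (points). Right, the percent of the summed FPKM of Slc27a1, Slc27a2 and Slc27a4 held by each gene in each library (stacked bars). The shares of Fabp3, Fabp5, Slc27a2 and Slc27a4 do not overlap between KO and WT, although the FPKM of Fabp5, Slc27a2 and Slc27a4 do.

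Of the binding proteins, Fabp4, the adipocyte form, measured 14059, 17389 and 15982 FPKM in the WT libraries and 15846, 15265 and 14000 FPKM in the KO libraries. The groups overlapped, and all 6 values lay within 1.24-fold of each other. In the fit the change was −0.07 ± 0.15 on the log2 scale (± SE; limma, adjusted p 0.85), and its 95% interval ran from 0.752-fold to 1.21-fold. Fabp5, the form first described in epidermis and also found in fat and macrophages, measured 145.2, 224.8 and 223.5 FPKM in the WT libraries and 145.7, 118.6 and 116.0 FPKM in the KO libraries. KO replicate 1 exceeded WT replicate 1 by 0.54 FPKM, and this pair was the only overlap. The means were 197.8 ± 45.6 and 126.8 ± 16.5 FPKM (n = 3 each, ± SD), and the log2 fold change was −0.62 ± 0.20 (SE; limma, adjusted p 0.139). Without WT replicate 1 it was −0.83 and passed (limma, adjusted p 0.0378). Without any other single library it did not pass (limma, adjusted p 0.175 to 0.411). Of the other cells known for Fabp5, the 10 epidermal markers summed to 4.90 to 6.80 FPKM in WT and 4.10 to 6.70 FPKM in KO. The basal keratins Krt5 and Krt14 were at 0 to 0.14 and 0 to 0.06 FPKM. The 3 that could be tested were Sfn, Krt10 and Trp63, and 0 passed. Sfn lay at 2.01 to 4.32 FPKM over the 6 libraries and overlapped (log2 fold change 0.05 by limma, adjusted p 0.938). Krt10 (1.93 to 2.07 FPKM in WT, 1.42 to 1.88 in KO) and Trp63 (0.56 to 1.27 and 0.20 to 0.52) did not overlap and were lower in KO (limma, adjusted p 0.557 and 0.171). Of all genes tested, 24.9% did not overlap. Krt5 and Krt1 were near 0 in every library and below the filter, so they were not tested. Both were higher in KO without overlap, with 0 FPKM in every WT library. In KO they were at 0.03 to 0.14 and 0.03 to 0.27 FPKM. The macrophage markers summed to 143.0 to 211.0 FPKM in WT and 198.3 to 275.3 FPKM in KO, with 11 of 12 higher in KO and 0 past the threshold. The part of these cells in the Fabp5 values was not tested.

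Fabp3, the heart and muscle form, which brown fat also expresses, had the smallest p of the 10. It measured 23.4, 51.0 and 31.1 FPKM in the WT libraries and 8.31, 15.4 and 21.8 FPKM in the KO libraries. Every KO library was below every WT library, with KO replicate 3 closest to WT replicate 1. The means were 35.2 ± 14.2 and 15.2 ± 6.74 FPKM (n = 3 each, ± SD), and the log2 fold change was −1.18 ± 0.35 (SE). Fabp3 missed the threshold over all genes in limma, with an adjusted p of 0.118, and reached 0.1, the lowest value there is for 3 against 3, in the exact permutation test. Its 95% interval ran from 0.253-fold to 0.766-fold. KO replicate 1 was the lowest library in Fabp3 and also in the summed skeletal muscle markers. Of these markers, 12 of 12 had a log2 fold change below 0, against 48.4% of all genes tested, and 0 passed. The KO libraries were not alike in them. Myh3 had the higher mean in KO, at 16.3 against 13.7 FPKM, with KO replicates 2 and 3 above every WT library. The muscle markers summed to 1481, 2187 and 1736 FPKM in WT and to 391.4, 1635 and 1975 FPKM in KO. Acta1, the highest of them, measured 368.6, 541.3 and 438.7 FPKM in WT and 78.6, 366.7 and 514.5 FPKM in KO. Mb, the gene of myoglobin, had the smallest p of the list and was chosen later. It measured 11.3, 27.4 and 32.3 FPKM in the WT libraries and 11.7, 9.01 and 11.4 FPKM in the KO libraries. In Mb the lowest library was KO replicate 2, and in every other marker of the list it was KO replicate 1. The part of muscle in the Fabp3 difference was not tested. Leaving out KO replicate 1 gave Fabp3 a difference of −0.83 (log2 fold change; limma, adjusted p 0.24).

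Fabp3 was also the only one of the 10 whose annotated span overlaps another gene. Its 3′ end on chromosome 4 shares 81 bases, all exonic, with Zcchc17 on the opposite strand, out of 823 exonic bases. Strand handling is not given in the sources used here, so reads on these bases cannot be told apart. Zcchc17 measured 18.9, 20.9 and 20.3 FPKM in the WT libraries and 14.4, 10.7 and 10.6 FPKM in the KO libraries (log2 fold change −0.72 ± 0.16 SE; limma, adjusted p 0.0559). By the estimated depth, Fabp3 rested on 95 reads in its lowest library and 596 in its highest, where the other 9 genes had at least 280, so its counting error was the largest of the 10, about 10.3% in KO replicate 1.

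Fabp4 held nearly all of the binding protein transcripts, 98.4% to 98.8% of the sum of the 3 genes in WT and 99.0% to 99.1% in KO. Fabp5 made up 1.02%, 1.27% and 1.38% in WT and 0.911%, 0.770% and 0.820% in KO, and Fabp3 0.165%, 0.289% and 0.192% in WT and 0.0519%, 0.0999% and 0.154% in KO. Both shares were lower in every KO library than in any WT library, with log2 differences of −0.55 for Fabp5 and −1.17 for Fabp3. The latter was −0.75 without KO replicate 1 and −1.54 without KO replicate 3. For each share the exact permutation test gave p 0.1, the smallest possible, and 0.2 adjusted over the 10 ratios. Each share depends on Fabp4, the main part of the sum. The Fabp5 level itself overlapped, at 145.2 FPKM in WT replicate 1 and 145.7 FPKM in KO replicate 1. Fabp4 was at 14059 and 15846 FPKM in those libraries. How often shares of other genes do not overlap was not computed. Fabp4 and Fabp5 lie in a cluster of binding protein genes that spans 288.9 kb on chromosome 3, in the order Fabp5, Pmp2, Fabp9, Fabp4 and Fabp12 (GRCm38.p6, chr3:10012585-10301515). The neighbours Pmp2 and Fabp12 were at 0 to 0.31 FPKM and Fabp9 at 0.87 to 2.67 FPKM, so the levels in the cluster ran from near 0 to the highest of the table.

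**Figure D4:**
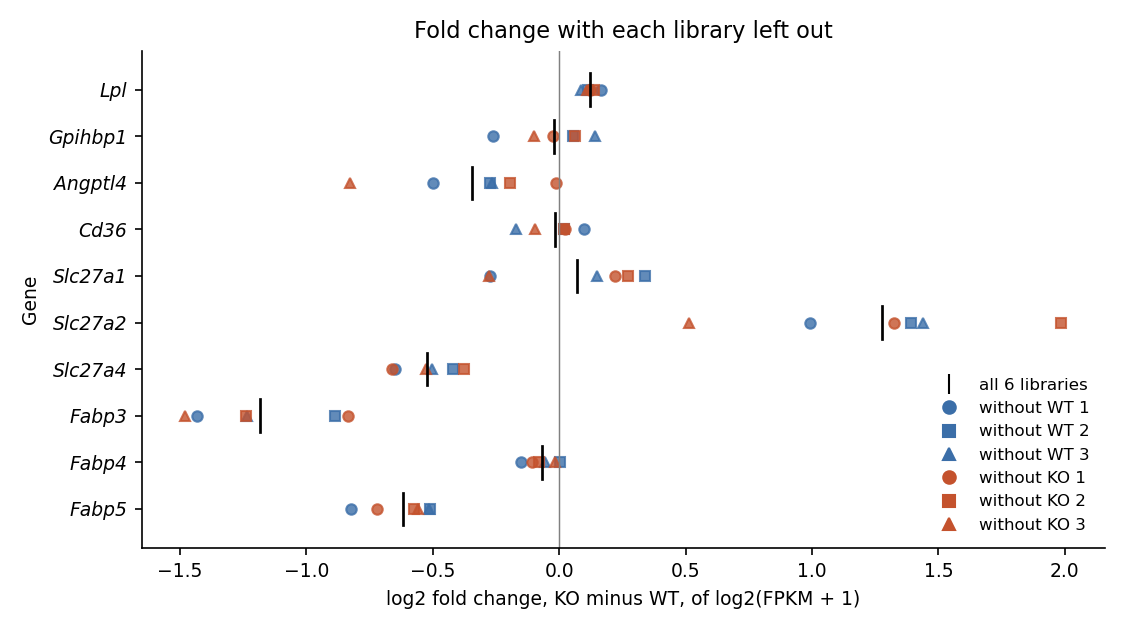
Log2 fold change of each gene (KO minus WT, of log2(FPKM + 1)) with all 6 libraries (black bar) and with each library left out in turn (points; colour gives the group and shape the replicate number of the library left out). Slc27a2 moves between 0.51 and 1.99 and Angptl4 between −0.83 and −0.01, while Lpl stays between 0.09 and 0.17.

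KO replicate 3 was the highest library in 4 of the 10 genes (Lpl, Angptl4, Slc27a1 and Slc27a2), where it was the highest in 14.9% of all genes tested, and WT replicate 2 was the highest in 4 (Fabp3, Fabp4, Fabp5 and Slc27a4), against 17.7% of all genes tested. Of 28 other known PPAR target genes, KO replicate 3 was the highest library in 10, WT replicate 3 in 8 and WT replicate 2 in 6. The share was 35.7% for KO replicate 3, against 14.9% of all genes tested, and 28.6% for WT replicate 3, against 18.0%. KO replicate 2 was the lowest library in 16 (57.1%, against 11.8% of all genes tested). Ehhadh, an enzyme of peroxisomal fatty acid oxidation, was at 501.1 FPKM in KO replicate 3 and at 62.0 to 95.3 FPKM in the other 5 libraries. Pdk4, a kinase that restrains pyruvate oxidation, was at 784.9 FPKM there and at 203.7 to 288.3 FPKM elsewhere. These 2 genes were chosen after their values were seen. In both, as in Slc27a2 and Angptl4, 1 KO library stood above the rest, and the 3 KO libraries were not alike.

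The other genes of the pathway were described by list. Of the partners of triglyceride hydrolysis (apolipoproteins, lipoprotein receptors, lipase maturation factors and proteases), 20 of 22 were tested, 0 passed, 10 were lower and 10 higher, and the median log2 fold change was 0.041. Lrp1, a large lipoprotein receptor, was among those with the smallest p-values (7.31, 8.20 and 6.34 FPKM in WT and 8.71, 9.45 and 12.6 FPKM in KO; log2 fold change 0.43 by limma, adjusted p 0.225). Of the other transport and binding genes, 13 of 21 were tested, 9 were lower and 4 higher, the median was −0.213 and 1 passed. That gene was Acsl1, which encodes the acyl-CoA synthetase that traps incoming fatty acids. It fell from 1235, 1109 and 1088 FPKM in WT to 729.3, 660.03 and 737.8 FPKM in KO (log2 fold change −0.69 ± 0.13 SE; limma, adjusted p 0.0417), a range of values below every WT library, and it passed in 9 of 18 alternatives. Without any 1 of the 6 libraries it did not pass, with adjusted p-values from 0.0531 (without WT replicate 1) to 0.175 (without WT replicate 2), nor with the replicate block (0.0775). No value of Cav1, the main caveolar protein, overlapped either, at 565.1 to 645.4 FPKM in WT and 466.8 to 523.8 FPKM in KO. Cav1 did not pass (limma, adjusted p 0.324) and was chosen after its values were seen. Of the 13 tested genes, 3 did not overlap with KO lower (Acsl1, Cav1 and Ptrf) and 1 with KO higher (Acsl3). Over all genes tested, 11.4% did not overlap with KO lower and 13.6% with KO higher.

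Of the PPAR receptors and coregulators, 16 of 16 were tested, 0 passed, 8 were lower and 8 higher, and the median was −0.017. Pparg, the main PPAR of adipocytes, was at 162.8 to 226.2 FPKM in WT and 184.7 to 262.0 FPKM in KO (limma, adjusted p 0.604). The smallest p-values were those of Prdm16, a coregulator of brown fat identity, at 5.25, 4.91 and 4.13 FPKM in WT and 3.0, 1.89 and 1.68 FPKM in KO (log2 fold change −0.87 by limma, adjusted p 0.0519), and of Cebpb, a transcription factor of early adipogenesis, with a log2 fold change of −0.95 (adjusted p 0.0674). Prdm16 passed in 6 of 17 alternatives and Cebpb in 3 of 18, in both cases including the fit that left out KO replicate 1 (limma, adjusted p 0.0409 and 0.0283). Of 28 other PPAR target genes, all tested, 17 were lower and 11 higher, the median was −0.183, and 3 passed, all lower. These were the lipid droplet coat genes Plin1 (log2 fold change −1.36, limma, adjusted p 0.0267) and Plin5 (−1.37, adjusted p 0.0435), and Acot1, which encodes a cytosolic acyl-CoA thioesterase. Acot1 fell from 28.7, 40.1 and 38.0 FPKM in WT to 16.1, 13.8 and 22.3 FPKM in KO (log2 fold change −1.004 ± 0.20 SE; limma, adjusted p 0.0435). Plin1, Plin5 and Acot1 passed in 12, 10 and 10 of 18 alternatives. Leaving out WT replicate 2, WT replicate 3 or KO replicate 2 ended the call of each (largest adjusted p 0.106 for Plin1, 0.179 for Plin5 and 0.183 for Acot1, each without WT replicate 2), as did leaving out KO replicate 3 for Plin1 (0.0617) and Plin5 (0.118) and KO replicate 1 for Acot1 (0.116). With the replicate block none of the 3 passed (limma, adjusted p 0.0523 for Plin1, 0.0775 for Plin5 and 0.0569 for Acot1).

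**Figure D5:**
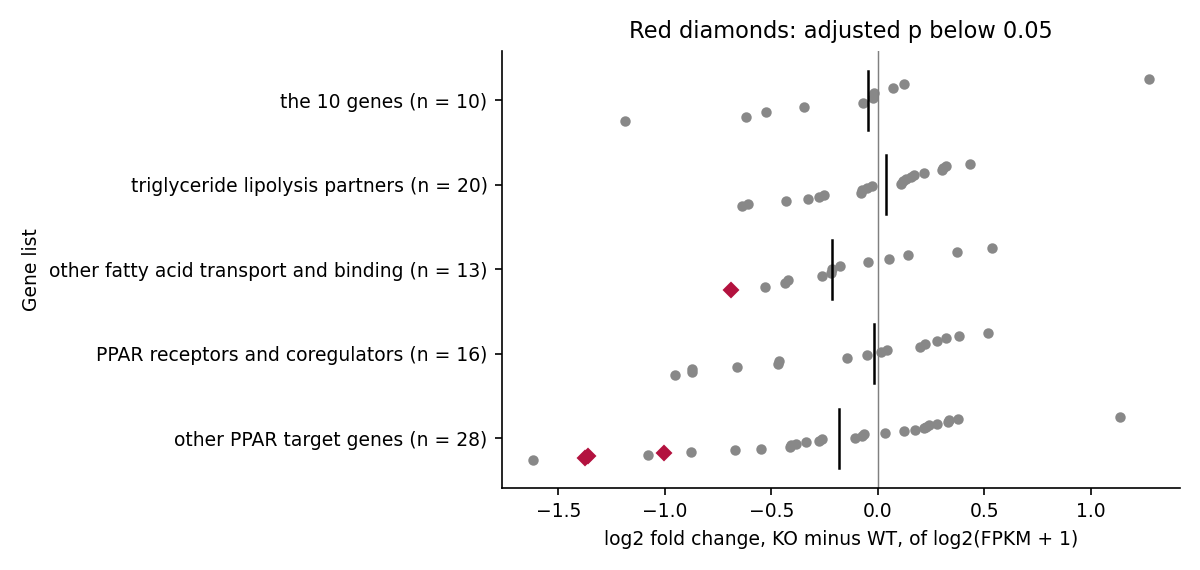
Log2 fold change (KO minus WT, of log2(FPKM + 1)) of the tested genes of each list (points), with the list's median as a black bar and genes past an adjusted p of 0.05 in limma as red diamonds. The diamonds are Acsl1 in the third row and Plin5, Plin1 and Acot1, from the left, in the bottom row; none of the 10 genes of the top row is one.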

How the data were processed

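FPKM values were deposited by the authors for 6 libraries (3 WT, 3 KO), 1 column each, rounded to 2 decimals, per the file headers. The submitters' processing notes name HISAT2 2.0.4, Bowtie2 2.2.5, DESeq2 and the build mm10, with no role. The counting tool, annotation and strand handling are not given in the sources used here. Groups came from the sample titles.

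The whole table was fitted with limma 3.58.1 (R 4.3.3) on log2(FPKM + 1), without a count model, for genes averaging 0.5 FPKM or more, with eBayes and an intensity trend, no covariates, and Benjamini-Hochberg adjustment at 0.05 over 13331 genes. On simulated data with 13408 genes and normal noise the fit called 178 of 200 genes changed by 1.5 on the log2 scale, and 9 unchanged ones. The 200 were drawn from genes averaging 5 FPKM or more. Their change exceeded the largest difference of the 10 genes, 1.27, so the simulation does not show how often smaller differences would be called. Ratios within a library were compared by exact two-sided permutation tests. The genes and lists were chosen with earlier results of these data known. Named were the 10 genes, Fstl1, the genes of each pathway list past the threshold or else the 2 with the smallest p, and the 2 genes most correlated with Lpl, Gpihbp1, Angptl4 and Cd36; other genes with values were chosen later. One gene that this rule names is not reported here.

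Depth was estimated from low FPKM of single-transcript genes with GENCODE vM21 lengths. The depth and length offset with the largest share of values within 0.2 of a whole read were taken. That share was 68.2% to 73.4% of 357 to 392 values per library, where even spread gives 40% at a depth fixed beforehand. Reads were therefore not recovered for the table. Positions came from RefSeq GRCm38.p6, the assembly of mm10. The numbers were not taken as pairs because the labels do not say that a number marks a shared litter, batch or day. Same-numbered libraries deviated together at correlations of 0.043 to 0.068, which does not settle whether they were paired. Alternatives were other pseudocounts (0.1, 0.01), filters (none, 5 FPKM), scalings (quantile, common sum, median of ratios, and a trimmed mean of M-values), variance models, array weights, the replicate block and each library left out. Figures were drawn with matplotlib 3.10.9.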

Additional observations from a re-analysis of the deposited data

How the results depend on the processing

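The number of genes called, 295, was 35 without the filter, 191 with a common sum, 3181 with array weights and 167 with the replicate block, and 34 to 444 with 1 library left out (lowest without WT replicate 3, highest without WT replicate 1). Of the 10 genes, 0 passed in all but 2 of the 18 alternatives. With array weights, in which WT replicate 2 weighed 6.70 and each other library 0.368 to 1.67, 3 passed: Fabp3 at −1.905, Fabp5 at −0.733 and Slc27a4 at −0.613. Leaving out each library gave 0 to 1, the 1 being Fabp5 without WT replicate 1. The replicate block left 0 of the 10 called. Leaving out each library, which was chosen after seeing the data for the number of genes whose groups do not overlap (2), moved it to between 2 and 6, against 30.6% to 44.7% of all genes tested; it was 6 without WT replicate 1 and 4 without KO replicate 1. Directions reversed in genes near 0. Gpihbp1 was 0.042 with quantile normalization and 0.008 with a common sum, and Cd36 0.011 with a common sum. Slc27a1 was −0.478 with array weights. Without 1 library, Gpihbp1 ran from −0.261 to 0.141, Cd36 from −0.17 to 0.098, Slc27a1 from −0.277 to 0.338, Fabp4 from −0.151 to 0.003 and Fabp5 from −0.825 to −0.511. The ratio of Gpihbp1 to Lpl ran from −0.429 to 0.055 and that to endothelial markers from −0.048 to 0.21, and was −0.001 with group medians. The other 6 genes kept their direction in all 18 alternatives, and the other 8 ratios in theirs. The cause of these shifts was not tested. By the estimated depth, the counting error was largest for Fabp3, about 10.3% in its lowest library.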
